A study of Mus musculus with 8 samples.

Results

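The genes described here are 49 ligands, receptors, secreted antagonists, transcription factors and targets of the Wnt pathway, chosen by name. Of these, 48 of the 18193 genes on the arrays had a probe set with 1 gene symbol, and the probe set of highest mean stands for each gene. Tcf7 had none in the annotation used and was not analysed here. Ccn4 is listed in older annotations as Wisp1.

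The cells were Dlk-positive hepatoblasts, the fetal progenitors that give rise to hepatocytes and biliary cells, taken from the liver of Ink4a-Arf-null mice at embryonic day 14.5. After magnetic sorting and 12 to 18 h in culture they were transduced with EGFP in the control group or with Bmi1, a member of Polycomb repressive complex 1, in the other group. Both groups lacked the Ink4a-Arf locus, grew on collagen type IV with 50 ng/ml HGF plus 20 ng/ml EGF, and were purified by flow cytometry on day 28 of culture. Each group has 4 arrays, numbered 1 to 4 for 4 independent experiments, and the comparison asks what differs where Bmi1 was introduced into cells without its best known target locus.

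Wnt proteins bind Frizzled receptors together with Lrp5 or Lrp6. This stops the destruction of beta-catenin, which then enters the nucleus and acts with TCF and LEF factors. Other Wnt proteins act through Ror and Ryk receptors without beta-catenin. In the liver, beta-catenin signalling is known for the pericentral enzymes, glutamine synthetase among them, and for growth of progenitors and biliary cells.

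The signals of some control genes bear on every result. Bmi1 itself, on the brighter of its probe sets, had a signal of 518 ± 218 (SD, n = 4) in the controls but of 279 ± 60.01 (SD, n = 4) where the label says Bmi1, lower in each of the 4 pairs. Where these probe sets lie relative to the introduced Bmi1 sequence was not examined, so they may not read it, and the signal does not check the labels. Directions below therefore follow the labels only, and "Bmi1 arrays" means the arrays labelled Bmi1. The hepatocyte markers Alb and Afp read at least 3004 and 3695 on every array. The 10 endothelial markers summed to 158 to 272 in the control arrays and 354 to 464 in the Bmi1 arrays, without overlap. By mean, 5 of these markers were higher, the brightest (Egfl7 and Flt1) among them, and 5 were lower, with a median log2 difference of 0.05. Of them Pecam1, Tek and Tie1 were at background on all 8 arrays, Egfl7, Flt1, Kdr and Eng were above it on all 8, and Egfl7 rose with the block (126 ± 52.3 against 249 ± 62.04, SD, n = 4 each, limma adjusted p = 0.0257 blocked and 0.345 unblocked). The 17 fibroblast and stellate cell markers summed to 17382 on control 1, from 4955 to 9016 on the other control arrays, and from 3894 to 8575 on the Bmi1 arrays, with Lrat at background on all 8 arrays. Of these 17 markers 13 had a lower mean in the Bmi1 arrays. The 7 measured biliary markers summed to 4972 to 5847 in the control arrays and to 5969 to 6603 in the Bmi1 arrays. By mean, 5 of the 7 were higher and 2, Cldn4 and Sox4, were lower. Epcam (limma adjusted p = 0.0268 blocked and 0.204 unblocked) and Cdh1 (0.0368 and 0.395) rose with the block. All 8 mesothelial markers had a lower mean in the Bmi1 arrays, with sums of 202 to 863 against 113 to 287, as had all 8 macrophage markers, with sums of 559 to 2806 against 675 to 2478. The Gapdh 3′/5′ ratio, a sign of RNA quality, was 3.10 on control 1 and 1.65 to 1.96 on the other 7 arrays. The part of these cell types and of RNA quality in the results below was not tested.

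Promoter sequence is shown for 3 genes whose values are described below, the receptor gene Ror2, the TCF factor gene Tcf7l2 and the glutamine synthetase gene Glul. Each window is the 250 bases before the transcription start in RefSeq (GRCm38.p6), 5′ to 3′ on the strand of the gene, with CG pairs in capitals. The windows are chr13:53286125-53286374 on the minus strand for Ror2, chr19:55741560-55741809 on the plus strand for the first start of Tcf7l2, and chr1:153899679-153899928 on the plus strand for Glul.
Ror2: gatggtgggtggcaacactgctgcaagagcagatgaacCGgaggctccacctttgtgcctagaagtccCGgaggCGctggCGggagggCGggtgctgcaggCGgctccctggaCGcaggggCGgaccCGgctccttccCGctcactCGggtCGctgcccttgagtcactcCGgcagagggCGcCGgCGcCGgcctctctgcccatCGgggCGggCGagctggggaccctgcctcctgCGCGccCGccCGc
Tcf7l2: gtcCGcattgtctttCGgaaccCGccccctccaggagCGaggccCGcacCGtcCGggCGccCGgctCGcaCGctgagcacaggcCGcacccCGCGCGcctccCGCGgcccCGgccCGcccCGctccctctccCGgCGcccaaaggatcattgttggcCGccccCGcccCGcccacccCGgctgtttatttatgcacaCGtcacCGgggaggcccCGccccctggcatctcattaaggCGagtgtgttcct
Glul: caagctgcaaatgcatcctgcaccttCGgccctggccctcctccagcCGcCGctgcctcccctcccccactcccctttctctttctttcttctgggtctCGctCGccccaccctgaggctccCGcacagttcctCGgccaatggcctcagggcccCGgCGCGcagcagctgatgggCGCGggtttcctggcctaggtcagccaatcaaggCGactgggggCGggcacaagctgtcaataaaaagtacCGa

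These windows hold 24 CG pairs for Ror2, 30 for Tcf7l2 and 15 for Glul, and the window of another Tcf7l2 start, chr19:55895071-55895320, holds 7. The median was 16 over the 40 windows found for 31 of the 48 genes and 6 over all 32851 RefSeq windows of this length. The TCF/LEF motif was searched as ATCAAAG or TTCAAAG on both strands. It lay in 3 of the 40 windows (7.50%) and in 7.48% of all windows, so these genes do not stand apart in it. The windows of other Wnt11 and Wnt5b starts held no match. The matches are shown with the motif in capitals. They lie at chr19:30549580-30549640 on the minus strand (Dkk1), chr7:98835034-98835094 on the plus strand (Wnt11) and chr6:119449424-119449484 on the minus strand (Wnt5b).
Dkk1: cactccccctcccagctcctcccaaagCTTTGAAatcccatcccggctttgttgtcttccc
Wnt11: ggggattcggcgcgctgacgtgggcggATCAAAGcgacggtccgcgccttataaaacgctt
Wnt5b: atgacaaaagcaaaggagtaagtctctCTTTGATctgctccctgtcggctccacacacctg

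Across the 48 genes, 26 had a higher and 22 a lower mean in the Bmi1 arrays, with a median log2 difference of 0.05. Over all genes 42.1% (7657 of 18193) were higher and the median was -0.06. Centring the arrays on all probe sets moved the median of all genes by 0.13. It gave 34 of the 48 genes and 10847 of the 18193 genes as higher. The balance of directions thus depends on the scaling, in the 48 genes as in all genes. None of the 48 passed in the model of the groups alone, called unblocked (limma, adjusted p under 0.05), where 0.0879% of all genes did. At an unadjusted p under 0.05 there were 4 higher and 0 lower, against 2.82% and 3.96% of all genes. The replicate numbers pair the arrays, and with the replicate number as a block the kinase-like receptor gene Ror2 and the ligand gene Wnt7b rose and the matricellular target gene Ccn4 fell. These 3 of 48 genes (6.25%) compare with 1.57% of all genes in that model, and by direction with 0.66% higher and 0.912% lower.

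**Figure D1:**
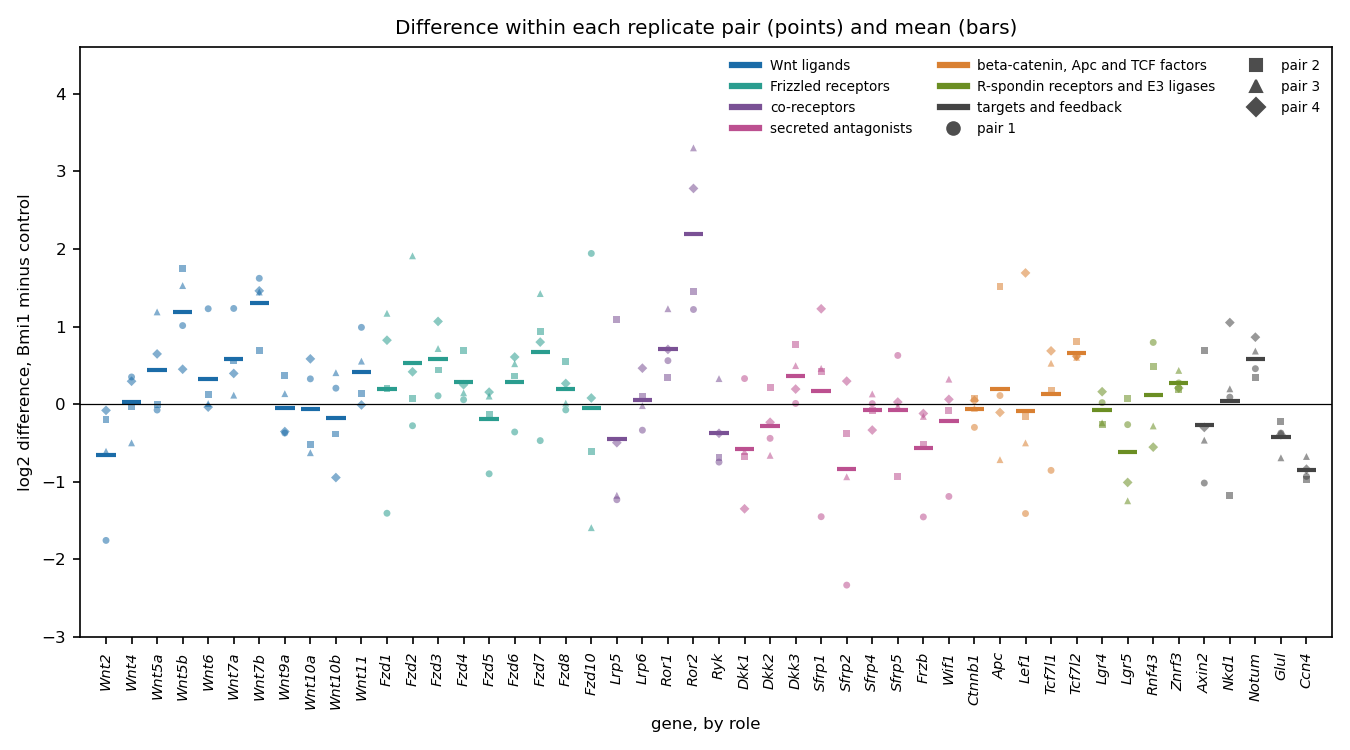
Log2 difference, arrays labelled Bmi1 minus control, for the 48 genes in order of role (x axis). Points are the 4 replicate pairs and bars their mean; Ror2 has the largest mean difference, 2.19, with pairs from 1.22 to 3.30.

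Ror2 encodes a receptor for Wnt5a that acts without beta-catenin. Its signal was 27.9, 24.1, 7.65 and 10.8 on control arrays 1 to 4 and 74.7, 77.0, 116 and 98.0 on Bmi1 arrays 1 to 4. The groups did not overlap, and the lowest Bmi1 array was above the highest control array. The log2 difference was 2.19, a 4.55-fold rise on this scale (block SE 0.37, limma adjusted p = 0.0309 blocked and 0.0856 unblocked). The second Ror2 probe set was dim, at 7.25, 0.42, 0.92 and 1.20 in the control arrays and 19.6, 9.72, 15.7 and 15.7 in the Bmi1 arrays, in the same direction (log2 difference 1.63). The Ror2 difference was 1.33 in replicates 1 and 2 and 3.04 in replicates 3 and 4, 2 sets of arrays that stood apart in many genes. This difference between the sets had an unadjusted p of 0.00499 in the limma interaction model and did not pass adjustment (adjusted p = 0.9998). In bulk RNA, more cells that carry a transcript and more transcript per cell cannot be told apart.

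The related receptor gene Ror1 read 98.4, 107, 25.1 and 42.9 in the control arrays and 156, 144, 68.1 and 73.7 in the Bmi1 arrays. It was higher in each of the 4 pairs, yet the groups overlapped because replicates 3 and 4 were low in both. Its log2 difference was 0.71 (block SE 0.20, limma adjusted p = 0.146 blocked and 0.898 unblocked). The other Ror1 probe sets were dim and differed by 0.04 and -0.07. Ryk, another Wnt receptor of this kind, read 310, 216, 192 and 223 against 195, 140, 257 and 174 (log2 difference -0.37, adjusted p = 0.437 with the block). Of the beta-catenin co-receptors, Lrp6 had a difference of 0.05 and Lrp5 was above background on 1 of 8 arrays.

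Among 11 ligands 7 had a higher and 4 a lower mean, with a median log2 difference of 0.33. Wnt7b, a ligand of developing epithelia, read 20.0, 29.3, 15.2 and 32.9 in the control arrays and 73.8, 52.9, 51.0 and 99.0 in the Bmi1 arrays. The groups did not overlap, and the log2 difference was 1.30 (block SE 0.25, limma adjusted p = 0.0442 blocked and 0.256 unblocked). Its other probe set read at most 10.2 on any array and did not share the direction (-0.13), and with both averaged the difference was 0.59 (limma adjusted p = 0.512 with the block). Wnt5b read 8.27, 0.82, 5.69 and 17.4 in the control arrays, 2 of them above background, and 22.0, 12.6, 25.2 and 25.6 in the Bmi1 arrays. Its difference of 1.18 did not pass (block SE 0.33, limma adjusted p = 0.155 blocked and 0.599 unblocked). Both Wnt5b probe sets were higher in the Bmi1 arrays.

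Wnt4, known from kidney and gonad development, gave strong signals with no separation of the groups, at 821, 1607, 1513 and 1423 in the control arrays and 1114, 1669, 1135 and 1777 in the Bmi1 arrays. Wnt5a, the ligand of Ror receptors, read 109, 81.3, 16.6 and 24.6 against 110.2, 86.2, 45.4 and 41.5. The high arrays were replicates 1 and 2 of both groups, and the log2 difference between groups was 0.44 (limma adjusted p = 0.512 with the block). Wnt6, Wnt7a, Wnt9a, Wnt10a and Wnt11 were above background on all 8 arrays, with differences from -0.06 to 0.58 that did not pass. Wnt2 was above background on 1 array and Wnt10b on 2 arrays.

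**Figure D2:**
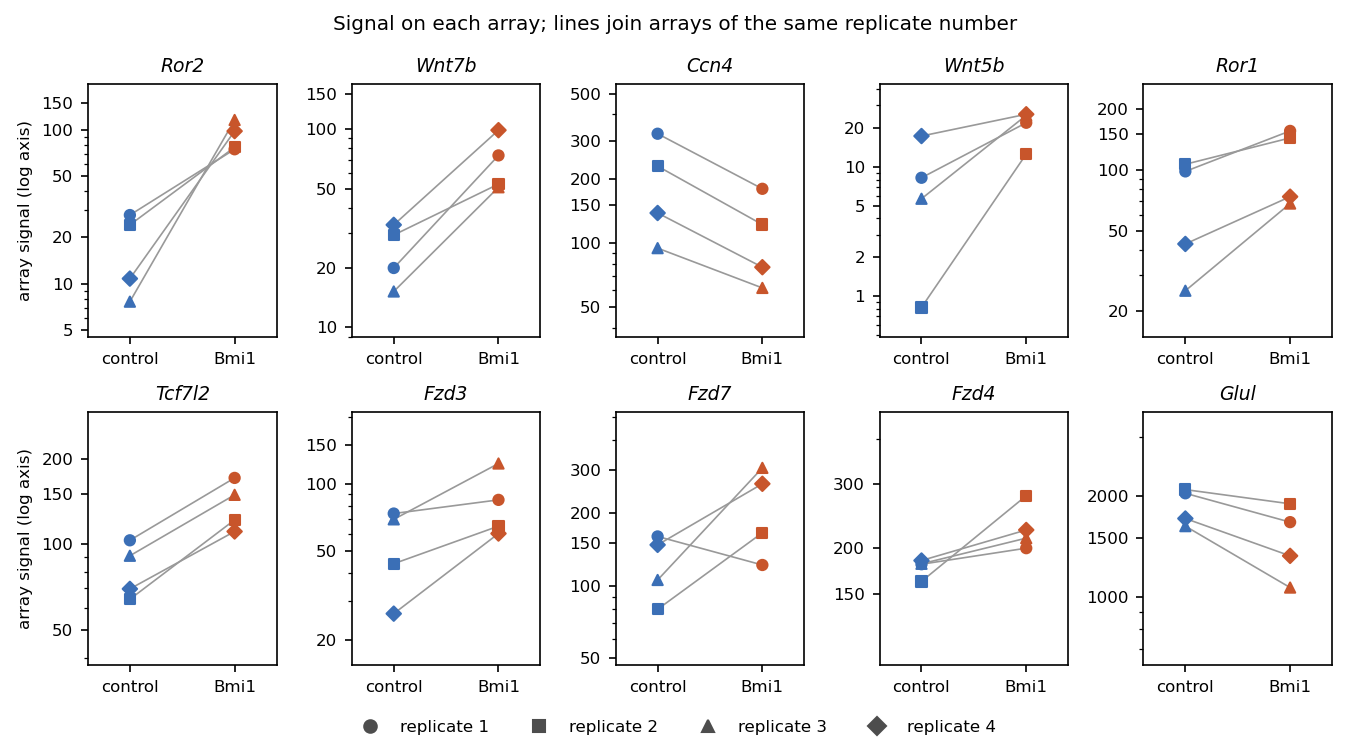
Signal on each array on a log axis for 10 of the genes, control arrays at left and arrays labelled Bmi1 at right; lines join arrays of the same replicate number. Ror2 and Wnt7b separate by group, whereas Ccn4 falls within each pair by 0.67 to 0.97 on the log2 scale from levels that differ among the pairs.

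Frizzled receptors, which bind Wnt proteins at the surface, had a higher mean in 7 of 9 cases, with a median log2 difference of 0.28, and 0 of 9 passed with or without the block (limma). At an unadjusted p under 0.05 there were 0 without and 2 with the block, Fzd3 and Fzd7, both higher. Of all genes 2.82% were higher at this p without and 5.36% with the block, and 1.57% passed with the block. Fzd4 read 181, 162, 181 and 185 in the control arrays and 200.2, 279, 213 and 225 in the Bmi1 arrays, so the groups did not overlap, with a difference of 0.29 (adjusted p = 0.426 with the block). Fzd3 read 73.8, 43.9, 69.5 and 26.2 against 85.1, 64.8, 124 and 60.04 and was higher in 4 of 4 pairs (0.58, adjusted p = 0.277 with the block). Of 6 Fzd3 probe sets 4 were higher in the Bmi1 arrays. Fzd7 read 160, 79.7, 105 and 147 against 122, 165, 307 and 264, lower in pair 1 and higher in the other 3 (0.67, adjusted p = 0.328 with the block). The second Fzd7 probe set read at most 4.32 on any array and differed by 0.01. Fzd5 read 578, 461, 244 and 201 against 328, 445, 278 and 229, without separation. Fzd6 and Fzd8 differed by 0.28 and 0.19, and Fzd10, at -0.05, was above background on 6 of 8 arrays.

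The mean differences of Fzd1 and Fzd2 had opposite signs in these 2 sets, but in both genes only pair 1 was lower. The log2 difference of Fzd1 was -0.60 in replicates 1 and 2 and 0.997 in replicates 3 and 4. That of Fzd2 was -0.10 and 1.16. By pair 1 to 4, the differences were -1.405, 0.20, 1.17 and 0.82 for Fzd1. They were -0.28, 0.08, 1.91 and 0.42 for Fzd2. In the limma interaction model the unadjusted p was 0.0375 for Fzd1 and 0.0460 for Fzd2, and the adjusted p was 0.9998 for both. Control 1, with the highest fibroblast and stellate marker sum, also had the highest Fzd1 signal, 726 against 142 to 437 on the other arrays, and the Gapdh 3′/5′ ratio of 3.10 given above. The part of such cells or of RNA quality in these values was not tested. With Ror2, these were 3 of 48 genes at an unadjusted interaction p under 0.05, and 0 passed adjustment, as for all 18193 genes in limma, where 612 had an unadjusted p under 0.05.

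Of 9 genes listed as secreted antagonists, most of which bind Wnt proteins or their co-receptors, 7 had a lower mean in the Bmi1 arrays. The median log2 difference was -0.22. Over all genes 42.1% had a higher mean. None of the 9 passed in limma with or without the block, and 0 had an unadjusted p under 0.05. Of all genes 1.57% passed with the block and 0.0879% without. At an unadjusted p under 0.05 with the block 5.36% were higher and 8.14% lower, so 0 of 9 is near these shares. Sfrp1, which binds Wnt proteins outside the cell, read 238, 173, 32.1 and 24.6 in the control arrays and 90.2, 246, 48.5 and 63.7 in the Bmi1 arrays. Its range within each group was far larger than the difference of 0.16 between them. Sfrp2, Frzb, Wif1, Dkk1 and Dkk2 were each at background on at least 1 array, and Wif1 was above it on 1 of 8. Sfrp4 and Sfrp5 differed by -0.07 and -0.08.

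Downstream, beta-catenin (Ctnnb1) read 3238, 2809, 3912 and 4152 in the control arrays and 2796, 3141, 3998 and 4366 in the Bmi1 arrays. Its log2 difference was -0.06 (SE 0.16), and the sign turned under other scalings. The other Ctnnb1 probe sets, both dimmer, differed by 0.39 and 0.07. Tested by themselves they did not pass (limma adjusted p = 0.394 and 0.940 with the block). Tcf7l2, the TCF factor, read 103, 64.1, 91.1 and 69.7 against 171, 122, 149 and 111. It was higher in each pair by 0.60 to 0.80, and the highest control array lay below the lowest Bmi1 array on the scale as deposited but not after centring. The mean difference of 0.66 did not pass (block SE 0.14, limma adjusted p = 0.0708 blocked and 0.551 unblocked). It passed with the block when dim genes were left out. All 4 Tcf7l2 probe sets were higher in the Bmi1 arrays. Lef1 was above background on 4 of 8 arrays, and Apc and Tcf7l1 differed by 0.20 and 0.13.

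Of 5 targets and feedback genes 2 had a higher and 3 a lower mean. Ccn4, a secreted matricellular protein induced by Wnt1, read 325, 229, 94.6 and 138 in the control arrays and 179, 122, 61.6 and 77.1 in the Bmi1 arrays. The groups overlapped, but within the pairs the log2 differences were -0.93, -0.97, -0.67 and -0.84. The mean fell by 0.85 on the log2 scale (block SE 0.13, limma adjusted p = 0.0244 blocked and 0.816 unblocked). The second Ccn4 probe set differed by -0.86 (limma adjusted p = 0.0806 with the block, each probe set tested by itself). Ccn4 is also expressed by fibroblasts, whose marker sum was highest on control 1. By pair, the sums were 17382, 9016, 5855 and 4955 in the control and 4472, 8575, 5886 and 3894 in the Bmi1 arrays. The smooth muscle actin gene Acta2, one of these markers, also fell with the block, by pair differences of -1.46, -0.13, -1.34 and -1.51 (limma adjusted p = 0.04999 blocked and 0.816 unblocked). Reln, another of these markers, went the other way and rose in 4 of 4 pairs (1.55, limma adjusted p = 0.00884 blocked and 0.466 unblocked). The part of fibroblast RNA in the Ccn4 value was not tested.

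Glul, glutamine synthetase, read 2032, 2084, 1622 and 1709 against 1667, 1891, 1064 and 1323, lower in 4 of 4 pairs. Its log2 difference of -0.42 did not pass (block SE 0.10, limma adjusted p = 0.104 blocked and 0.802 unblocked). All 9 measured hepatocyte markers also had a lower mean in the Bmi1 arrays, with a median of -0.25. They ranged from -0.14 (Afp) and -0.15 (Ttr) to -1.24 (Apoa2), -1.56 (Cps1) and -2.08 (Tat). Of these markers only Apoa2 passed with the block (limma adjusted p = 0.0464 blocked and 0.268 unblocked). The part of hepatocyte expression in the Glul value was not tested. Notum, an enzyme that inactivates Wnt proteins, was dim but separated, at 15.2, 15.5, 10.9 and 13.6 against 23.8, 22.2, 21.2 and 28.4 (0.59, adjusted p = 0.409 with the block). Axin2, the feedback inhibitor often read as a measure of beta-catenin activity, was at 40.6, 20.1, 25.1 and 26.7 against 19.5, 37.0, 18.4 and 21.4 and did not separate (-0.27, adjusted p = 0.771 with the block). Nkd1 differed by 0.04.

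The R-spondin receptors and the E3 ligases that remove Frizzled proteins also gave 0 of 4 genes past the test in limma. At an unadjusted p under 0.05 there were 0. Of all genes 1.57% passed with the block, and 5.36% were higher and 8.14% lower at that unadjusted p. With 4 genes, 0 is near these shares. Lgr4 read 405, 427, 591 and 427 against 436, 378, 531 and 486. Lgr5, a stem cell marker and Wnt target, read 52.1, 19.7, 23.1 and 24.3 against 45.7, 22.3, 8.26 and 10.4 (-0.61, adjusted p = 0.456 with the block). Znrf3 was higher by 0.28 in the mean and Rnf43 by 0.11.

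Groups that did not overlap were found for Wnt7b, Fzd4, Ror2 and Notum, all higher in the Bmi1 arrays. These 4 of 48 genes (8.33%) compare with 1.92% of all genes, and 0 were lower without overlap, against 2.61%. With the block, 7 were higher and 2 lower at an unadjusted p under 0.05 (14.6% and 4.17%, against 5.36% and 8.14% of all genes). These were Wnt5b, Wnt7b, Fzd3, Fzd7, Ror1, Ror2 and Tcf7l2, and Glul and Ccn4. These shares move with the scaling. With arrays centred on all probe sets the counts at an unadjusted p under 0.05 with the block were 10 higher and 1 lower, against 7.68% and 3.97% of all genes. Without centring they were 10 and 2, against 7.59% and 5.90%. Groups without overlap then numbered 5 higher (all genes 1.66%) with centring on all probe sets and 6 (2.51%) without centring, and 0 lower in both (1.28% and 1.78% of all genes). No test over the list was made.

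The 3 calls with the block rest on all 4 pairs. Leaving out replicate 1, 2, 3 or 4 gave limma adjusted p = 0.0555, 0.0794, 0.130 and 0.105 for Ror2. It gave 0.131, 0.0744, 0.192 and 0.186 for Wnt7b, and 0.0826, 0.109, 0.0776 and 0.0787 for Ccn4. With replicates 1 and 2 against 3 and 4 as the block, Ror2 passed (0.0275), while Wnt7b (0.106) and Ccn4 (0.113) did not.

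A larger split ran through these genes between replicates 1 and 2 and replicates 3 and 4, which hold both groups equally. In limma, 10 of the 48 genes (20.8%) differed between these sets, 9 lower in replicates 3 and 4, against 12.1% of all genes. They were Wnt5a (-1.66), Wnt9a (-0.89), Fzd5 (-0.996), Ror1 (-1.38), Dkk2 (-2.76), Dkk3 (-1.53), Sfrp1 (-2.13), Glul (-0.54), Ccn4 (-1.24) and, higher, Ctnnb1 (0.36), as log2 differences. The Wnt inhibitor gene Dkk2 read 75.6, 33.1, 6.14 and 5.64 in the control arrays and 58.4, 41.5, 2.88 and 4.37 in the Bmi1 arrays, so that it was at background in replicates 3 and 4 of both groups. Dkk3, of the same family, read 103, 69.6, 19.9 and 44.2 against 110, 128, 31.6 and 52.0. The sum of fibroblast and stellate markers was 4472 to 17382 in replicates 1 and 2 and 3894 to 5886 in replicates 3 and 4, and its part in the split was not tested. The BioC 3′ hybridisation control differed between the sets too, 198 to 274 against 97.0 to 119.

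**Figure D3:**
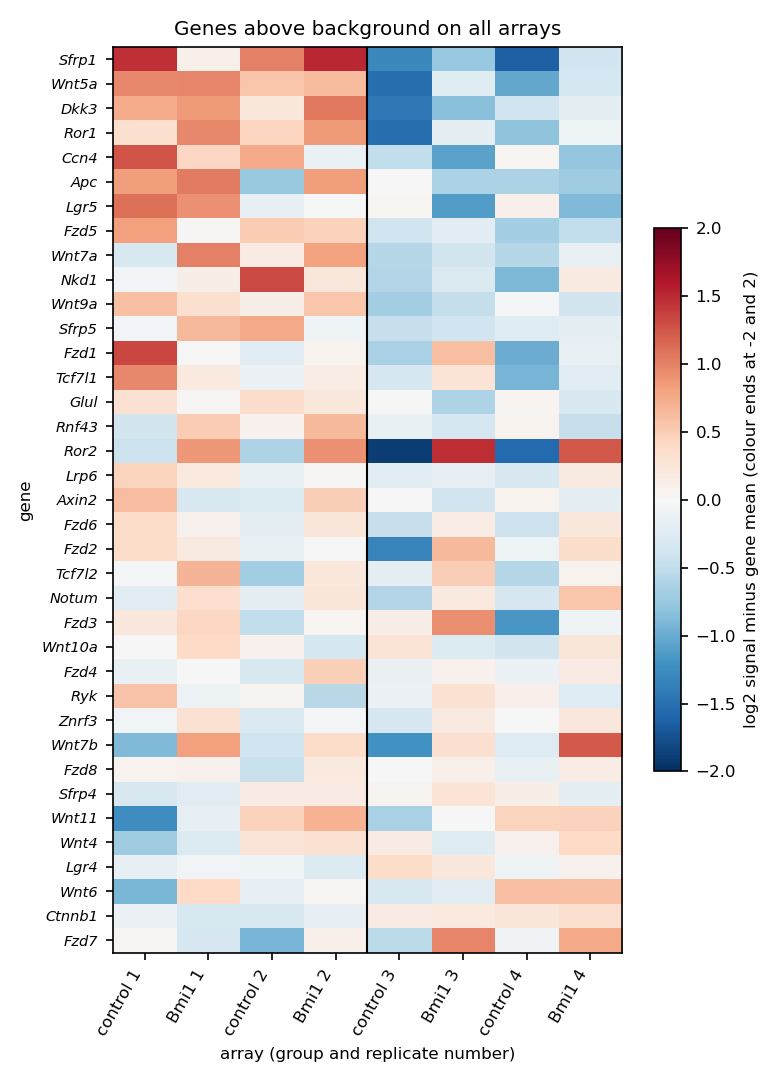
Log2 signal minus the mean of the gene (colour) on each array for the 37 genes above background on all 8 arrays, ordered by how far replicates 3 and 4 lie from replicates 1 and 2. Sfrp1, Wnt5a and Dkk3 at the top are low in replicates 3 and 4 of both groups, while Ror2 and Wnt7b alternate by group.

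Of 80 further pathway genes 78 were measured, and 35 had a higher and 43 a lower mean. None passed without the block in limma, with 6 higher and 3 lower at an unadjusted p under 0.05, against 2.82% and 3.96% of all genes. The 3 lower, 3.85% of 78, are near the share of all genes. With the block 2 rose and 1 fell (2.56% and 1.28%, against 0.66% and 0.912% of all genes). Ccnd1, the cyclin of early G1 and a reported beta-catenin target, read 532, 574, 956 and 881 in the control arrays and 1164, 1283, 2245 and 1588 in the Bmi1 arrays. It rose by 1.02 on the log2 scale (block SE 0.10, limma adjusted p = 0.00662 blocked and 0.179 unblocked). This held without any 1 replicate number, with adjusted p from 0.0108 to 0.0429. Tle4, a corepressor that binds TCF factors, rose with the block, from 151, 134, 205 and 147 to 295, 293, 353 and 202 (0.75, limma adjusted p = 0.0367, and 0.331 without). The other Tle4 probe sets were dim, with means of 11.4 and 6.84 in the control arrays and 16.2 and 6.46 in the Bmi1 arrays. With its 3 probe sets averaged Tle4 did not pass (limma adjusted p = 0.536 with the block).

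Rspo3, a secreted amplifier of Wnt signals known from the central vein, read 137, 39.97, 37.2 and 38.1 in the control arrays and 22.8, 19.3, 3.73 and 7.44 in the Bmi1 arrays. The groups did not overlap, and it fell with the block (-1.99, SE 0.33, limma adjusted p = 0.0279, and 0.328 without). The second Rspo3 probe set read at most 6.08 on any array and did not share the direction (means of 2.37 and 3.17). With its 2 probe sets averaged Rspo3 did not pass (limma adjusted p = 0.150 with the block). Without replicate 1, 3 or 4 the calls of Tle4 and Rspo3 were lost in limma, with adjusted p from 0.0552 to 0.148, and without replicate 2 Rspo3 passed (0.0473) and Tle4 did not (0.159). Myc, another reported target, read 249, 401, 462 and 368 against 255, 343, 377 and 304 (-0.26, adjusted p = 0.343 with the block).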

How the data were processed

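The deposited values are probe set intensities, linear, with a 2% trimmed mean of 100.0 on every array. Per the labels, RNA of 10000 cells went through 2-cycle amplification. The sources used here do not name the software that made them. Values entered as log2(value + 3.78), the median of all values divided by 4, and folds of dim genes are understated. Arrays were centred on the median of the genes that reach the 40th percentile in mean signal. All 18193 genes were fitted without a level filter with limma 3.58.1 in R 4.3.3 (lmFit, eBayes with trend, two-sided, Benjamini-Hochberg over all genes, threshold 0.05). For same-numbered arrays the correlation of the deviations from the group means was 0.52, 0.48, 0.50 and 0.66 (numbers 1 to 4), so the numbers were taken as pairs. It was also 0.48 for control 1 with Bmi1 2, and 0.35 for control 4 with Bmi1 3. Between replicates 1 and 2 and replicates 3 and 4 it was -0.63 to -0.18. These values separate the 2 sets of replicates but do not single out every pair within a set. The background of an array was the 95th percentile of 27 Bacillus control probe sets, 4.09 to 9.97. Of 45101 probe sets, 34945 had 1 gene symbol, 932 several and 9160 none, and 64 were controls. Tcf7 was not analysed here. Values by array are given for genes at an unadjusted p under 0.05 in either model, genes whose groups do not overlap and the brightest of each role, and any other gene so shown was chosen after its values were seen. The members and lists were chosen with earlier results of these data known. The number of arrays limits the precision.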

Additional observations from a re-analysis of the deposited data

Results flagged for a closer look

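Of 96 groups of 4 arrays, 4 had an extreme array past the 95% critical value of Dixon, and chance gives about 1 in 20. The gap, as a share of the range of the log2 values, was 0.895 for Wnt2 (Bmi1 2 highest, a gene at background on all Bmi1 arrays), 0.882 for Wnt5b (Bmi1 2 lowest), 0.881 for Lgr5 (control 1 highest) and 0.841 for Nkd1 (Bmi1 3 lowest).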

How the results depend on the processing

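In limma, 286 of all genes passed with the replicate block, 157 with the replicate set as block, 296 with the block and no centring, 338 with the block and centring on all probe sets, 266 with the block and quantile normalization, 335 with the block and the 40th percentile filter, 196 with the block and the mean of probe sets, and 257 with the block and every probe set. Unblocked the count was 16, and 8 with quantile normalization, 25 with the filter, 10 with the mean of probe sets, 3 with every probe set and 29 with array weights. Within replicates 1 and 2 or 3 and 4 alone it was 0, with 1141 and 1483 at an unadjusted p under 0.05. Leaving out 1 array gave 0 to 14, and leaving out 1 pair with the block 44 to 143 (88, 56, 44 and 143 for pairs 1 to 4). Of the 48 genes, 3 passed with the block, and also without centring, with quantile normalization or with every probe set, 4 with the filter (Tcf7l2 added), 2 with centring on all probe sets or the mean of probe sets, 1 with the set as block, and 0 without any 1 pair. Unblocked, 1 (Ror2) passed with centring on all probe sets or with array weights and 0 otherwise. Of the 78 further genes, 3 passed with the block under 6 of these settings, 1 with the mean of probe sets, 2 with the set as block, and 1 to 2 without 1 pair. The block changed no other call among the pathway genes named. Of the cell type markers named, Egfl7, Acta2, Reln, Apoa2, Epcam and Cdh1 passed with the block and not without it. Some small differences changed sign. Wnt4 was -0.10 in replicates 3 and 4 alone and -0.16 to 0.14 without 1 array (blocked, -0.077 without pair 1, -0.059 without pair 4). Fzd5 was 0.13 in replicates 3 and 4 alone, 0.14 with array weights and -0.46 to 0.090 without 1 array (blocked, 0.042 without pair 1). Sfrp1 was -0.52 in replicates 1 and 2 alone, -0.068 with the mean of probe sets and -0.37 to 0.72 without 1 array (blocked, -0.19 without pair 4). Ctnnb1, blocked or not, was 0.013 without centring, 0.073 with centring on all probe sets, 0.070 with quantile normalization, 0.13 with the mean of probe sets and -0.15 to 0.032 without 1 array (blocked, 0.024 without pair 1). Lgr4 was 0.050 with centring on all probe sets and -0.14 to 0.031 without 1 array. The cause was not tested.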
